A study of Mus musculus with 12 samples.

Results

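The cytosolic stress chaperones of the HSP90, HSP70, HSP110 and HSP40 families, with the transcription factor gene Hsf1, were followed in brain and liver of aged mice after repeated heat exposure. Its members were taken by gene symbol, with earlier results of these data known. All 10 symbols (Hsp90aa1, Hsp90ab1, Hspa8, Hspa1a, Hspa1b, Hsph1, Hspa4, Dnajb1, Dnaja1 and Hsf1) had a row among the 25239 genes of the deposited count table. The mice were male wild-type (WT) C57BL6/J animals aged 24 months in every group. The heat stress (HS) group was kept at 40 °C and a relative humidity of 60% for 3 h per day over 15 days, and the control (CO) group was not. Messenger RNA was sequenced from 3 CO and 3 HS mice in each tissue, which gave 12 libraries. Each RNA sample came from a cut piece of frozen tissue, and the brain region is not given in the sources used here. The model covers 1 sex, 1 age and 1 strain.

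HSP90, HSP70 and HSP40 proteins form a relay that keeps client proteins folded in the cytosol. HSP40 proteins such as DNAJB1 and DNAJA1 deliver clients to HSP70 and stimulate its ATPase, the HSP110 proteins HSPH1 and HSPA4 exchange the nucleotide on HSP70, and clients such as kinases and steroid receptors are passed on to HSP90. Cells hold constitutive forms (HSP90AB1 and HSPA8) beside heat-inducible ones (HSP90AA1, HSPA1A and HSPA1B). HSF1, held inactive by chaperones in unstressed cells, binds heat shock elements upon heating and drives transcription of the inducible genes. That induction is a transient response. The liver and brain libraries measure RNA levels after the exposure series, and the hours from the last exposure to tissue collection are not given in the sources used here.

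The libraries held between 10466198 and 15609040 counts. Neuron markers summed to between 5484 and 7529 normalized counts (CPM, scaled by library total and normalization factor) in the brain libraries and to at most 31.3 CPM in liver. Hepatocyte markers summed to between 82378 and 128877 CPM in liver and to between 229.6 and 2328 CPM in brain, where all but 2.10 to 15.7 CPM came from Ttr, a gene that is also on the choroid plexus list. The labelled tissues were thus matched by their markers. A liver CO library (replicate 1) and a liver HS library (replicate 2) stood apart, because all 8 of the 8 skeletal muscle markers were counted there and summed to 335.0 and 1929 CPM. The other 4 liver libraries had 0.839 to 6.23 CPM of that list, with Actn3 at 0 in each of them. In the column names of the count table, 1 liver CO library (replicate 2) and 2 liver HS libraries (replicates 1 and 3) carry the suffix 2nd, which the sources used here do not explain. Liver fold changes, the tissue difference and the list counts are given below also without the 2 libraries that held muscle transcripts, and the fold changes of the set also by suffix, whereas the correlations are given over all libraries only. Both ways of dividing the libraries were chosen after the values were seen. Without the muscle-bearing libraries, 2 CO livers (replicates 2 and 3) and 2 HS livers (replicates 1 and 3) remain. Both of these HS livers and 1 of these CO livers carry the suffix, so group and suffix are partly confounded there. The ratios by suffix have no test, since they set 1 CO against 2 HS libraries with the suffix and 2 CO against 1 HS library without it, which is the muscle-bearing HS replicate 2. CPM values were scaled within each tissue by trimmed mean of M-values (TMM) factors, so they are compared between groups of 1 tissue only.

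Promoter sequences were read first, since HSF1 recognizes inverted repeats of the unit nGAAn. Of the 10 genes, 6 had an entry in the RefSeq promoter table (GRCm38.p6, 250 bases before to 50 bases after the transcription start). Hsp90aa1, Hsp90ab1, Hspa8 and Hsf1 had none. The letters of 2 adjoining units were searched as GAANNTTC or TTCNNGAA, each of which reads the same on both strands. Such letters were present in 15.1% of 32851 promoters of the table. These were the windows of 300 bases, outside a chromosome left out of the search that holds none of the 10 genes. The letters of 3 units were searched as GAANNTTCNNGAA or its reverse complement TTCNNGAANNTTC, which contain the letters of 2 units, and 0.603% of the promoters (198) held them. The 4 genes with a match of 2 units in any listed window are shown because they hold the letters searched, whereas the share above is per window. Of these, Hsph1 and Dnaja1 did not overlap between the liver groups and Hspa1a and Hspa1b did. Of the genes with an entry and no match, Hspa4 did not overlap either and Dnajb1 did. Among all tested genes, 5.73% were lower and 5.38% higher without overlap in liver. Whether the letters go with the liver values was not tested. Capitals mark the matched letters, and each sequence is given 5′ to 3′ along the gene's strand, here the minus strand for all but Dnaja1.
Hsph1 (chr5:149636287-149636586): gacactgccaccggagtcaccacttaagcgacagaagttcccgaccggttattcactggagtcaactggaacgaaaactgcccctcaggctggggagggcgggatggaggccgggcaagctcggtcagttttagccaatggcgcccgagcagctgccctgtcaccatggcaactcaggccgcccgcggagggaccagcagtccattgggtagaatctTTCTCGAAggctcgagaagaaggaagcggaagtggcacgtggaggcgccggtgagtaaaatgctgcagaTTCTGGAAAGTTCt
Hspa1a (chr17:34972107-34972406): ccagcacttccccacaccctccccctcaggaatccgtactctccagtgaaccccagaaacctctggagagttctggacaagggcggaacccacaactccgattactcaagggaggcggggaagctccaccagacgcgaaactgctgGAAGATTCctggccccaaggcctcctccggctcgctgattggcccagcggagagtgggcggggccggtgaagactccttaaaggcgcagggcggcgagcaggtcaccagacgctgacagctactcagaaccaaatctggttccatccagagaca
Hspa1b (chr17:34959189-34959488): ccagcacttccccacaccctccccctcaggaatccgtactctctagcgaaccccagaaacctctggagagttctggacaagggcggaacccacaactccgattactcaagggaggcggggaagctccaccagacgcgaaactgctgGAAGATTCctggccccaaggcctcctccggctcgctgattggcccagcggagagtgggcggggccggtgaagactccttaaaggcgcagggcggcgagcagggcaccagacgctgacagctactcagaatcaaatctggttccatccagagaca
Dnaja1 (chr4:40722218-40722517): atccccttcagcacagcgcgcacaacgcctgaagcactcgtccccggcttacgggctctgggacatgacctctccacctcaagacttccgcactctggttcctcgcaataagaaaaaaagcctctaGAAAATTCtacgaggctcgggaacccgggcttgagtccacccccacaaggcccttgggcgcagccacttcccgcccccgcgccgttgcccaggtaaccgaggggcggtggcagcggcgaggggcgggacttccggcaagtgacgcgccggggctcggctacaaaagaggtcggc
Hsph1 alone held the letters of 3 units. They began at base 36 after its transcription start, within the transcribed part, and a further match of 2 units began 33 bases before the start. The table lists a second start of Hsph1 (window chr5:149636266-149636565), from which the same letters lie at base 15 after the start and 54 bases before it. Hspa1a and Hspa1b both had their match 104 bases before the start, and the promoter windows of this gene pair were identical at 296 of 300 bases (98.7%). In Dnaja1 the match lay 124 bases before the start of the first of 3 listed starts. No match was found in these windows of Hspa4 and Dnajb1. A match of letters describes the sequence and does not show binding.

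The liver comparison asked how 15 days of periodic heat changed these RNAs. Hsp90aa1 and Hsph1 stood at 0.339 and 0.386 of their CO level in the HS liver, and ranked 5 and 4 among 12296 tested genes by p. Dnaja1 stood at 0.695 of its CO level. All 9 tested genes of the set had a log2 fold change below 0, against 48.2% of all tested genes below 0 and 51.8% above. At an adjusted p under 0.05 edgeR's quasi-likelihood test called 0 genes of the set lower and 0 higher, and 0% of all 12296 genes. At an unadjusted p under 0.05, 3 were lower (Hsp90aa1, Hsph1 and Dnaja1) and 0 higher, against 2.87% lower and 2.97% higher of all tested genes. The groups did not overlap for 4 genes, with HS lower each time, against 5.73% lower and 5.38% higher of all tested genes. DESeq2 on the same 6 libraries called 2 of the genes lower (Hsp90aa1 and Hsph1) and 0 higher, against 0.307% and 0.246% of all genes it tested. The median log2 fold change was -0.26 over the 9 genes and 0.01 over all tested genes. Without the 2 libraries that held muscle transcripts, on 2 CO against 2 HS livers, edgeR called 2 genes lower (Hsp90aa1 and Hsph1) and 0 higher. Of all 12239 genes tested there, 0.286% were called lower. In that fit 7 of the 9 genes were below 0, against 49.6% of all tested genes, with a median of -0.18 against 0.003 over all tested genes. Of the marker lists for other cells, the endothelial list alone did not overlap between the liver groups, with all 5 markers counted in every library and sums of 49.1 to 53.6 CPM in CO and 56.0 to 65.2 CPM in HS, and its part in the liver values was not tested. In bulk tissue, fewer cells of a type and less RNA per cell cannot be told apart. Whether libraries of the same number in brain and liver came from the same mouse is not given in the sources used here.

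**Figure D1:**
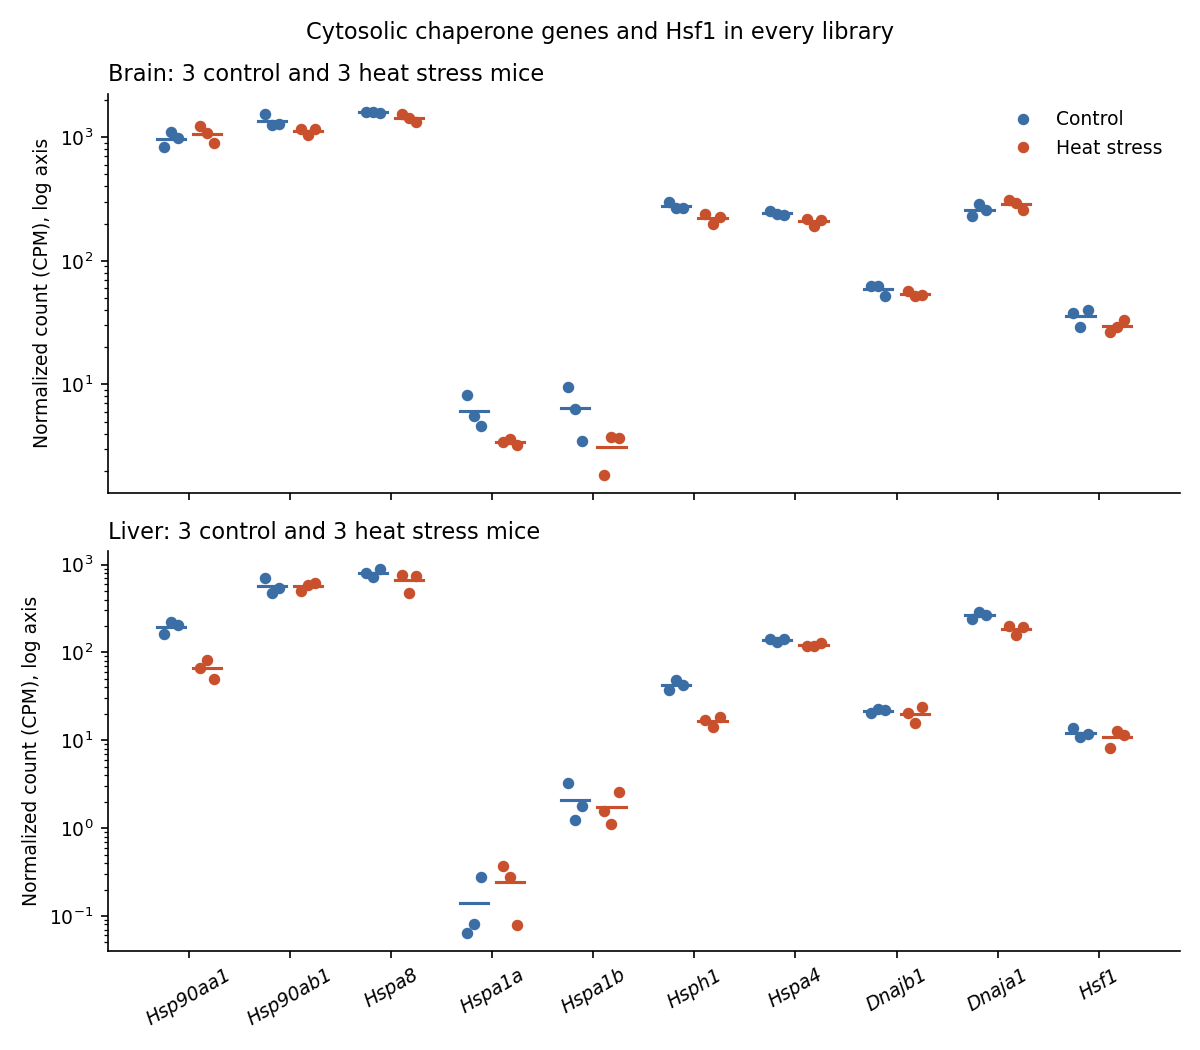
Normalized counts (CPM, log axis) of the 10 genes in each of the 12 libraries, with brain above and liver below, where each point is 1 library (replicates 1 to 3 from left to right) and each bar is the mean of 3. In liver the HS points of Hsp90aa1 (50.2 to 81.9 CPM) and Hsph1 (14.2 to 18.4 CPM) lie below all CO points (161.5 to 220.7 and 37.3 to 48.2 CPM), while in brain the Hsp90aa1 points overlap.

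Hsp90aa1 encodes the inducible HSP90 alpha and lies on chromosome 12 from 110690605 to 110702728 (mm10, minus strand). Its liver level was 161.5, 220.7 and 204.9 CPM in the CO mice and 66.9, 81.9 and 50.2 CPM in the HS mice. Every HS library lay below every CO library by a wide margin. The means were 195.7 ± 30.6 CPM (SD, n = 3) in CO and 66.3 ± 15.8 CPM (SD, n = 3) in HS. The log2 fold change was -1.56 (standard error 0.23, edgeR adjusted p = 0.107). DESeq2 gave -1.58 with an adjusted p of 2.49e-08 on the same libraries. Over 21 alternatives the log2 fold change stayed between -1.87 and -1.41, with adjusted p-values from 1.33e-10 to 0.883. The highest came without HS replicate 3, and leaving out CO replicate 1 instead gave -1.69 with an edgeR adjusted p of 0.00355. Without both libraries that carried muscle transcripts the fold change was -1.87 (edgeR adjusted p = 2.48e-05). Among libraries with the column suffix the log2 ratio was -1.91 and among those without it -1.16, each with a single library in 1 group. Of the 100-base windows of its longest transcript, 47.5% also occurred in transcripts of other genes, most of them in Gm12346, so part of its reads could have been assigned elsewhere.

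Hsp90ab1 encodes the constitutive HSP90 beta (chromosome 17, 45567775 to 45573271, minus strand) and showed another picture. The CO livers had 707.4, 479.3 and 542.7 CPM and the HS livers 498.2, 584.6 and 612.3 CPM. The ranges overlapped throughout, and the log2 fold change of -0.03 (standard error 0.21, edgeR adjusted p = 0.994) turned to 0.13 without CO replicate 1 and to 0.10 without both muscle-bearing libraries. The log2 ratio was 0.21 among libraries with the suffix and -0.10 among those without it. Per length of the merged exons of a gene, Hsp90aa1 made up 14.8%, 26.0% and 22.4% of the HSP90 pair in the CO livers and 9.29%, 9.65% and 5.89% in the HS livers. The smaller share of the inducible form was thus present in each HS liver. The summed CPM of the pair was 772.2 ± 87.1 (SD, n = 3) in CO and 631.4 ± 57.4 (SD, n = 3) in HS, without overlap (699.9 to 868.9 against 565.1 to 666.5). CO replicate 1 was the highest and HS replicate 2 the highest of its group, and the other 4 livers were also apart (699.9 and 747.7 against 565.1 and 662.6). None of the 100-base windows of Hsp90ab1 occurred in another gene.

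**Figure D2:**
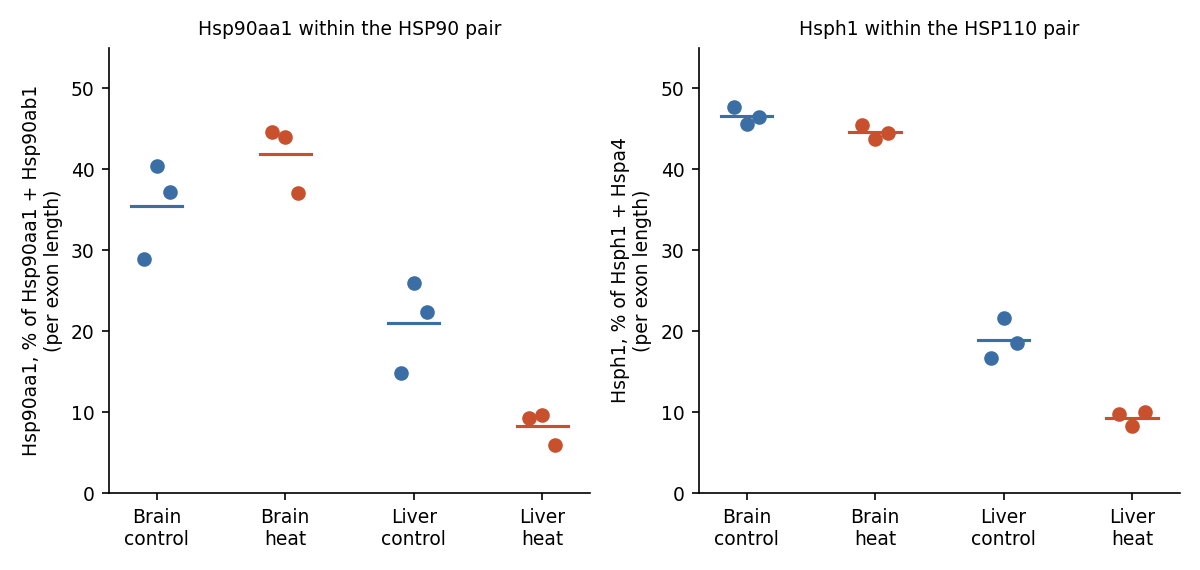
Share of Hsp90aa1 in the HSP90 pair (left) and of Hsph1 in the HSP110 pair (right), in percent of the pair's CPM per merged exon length, with 1 point per library and bars for the means of 3. In HS liver the shares (5.89% to 9.65% and 8.29% to 10.0%) lie below all CO livers (14.8% to 26.0% and 16.7% to 21.6%).

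Hsph1 encodes HSP110, a nucleotide exchange factor that lets HSP70 release its client and also takes part in protein disaggregation. It lies on chromosome 5 from 149614287 to 149636376 (minus strand), and its promoter is the only one of those shown with letters of 3 units. The CO livers had 37.3, 48.2 and 43.1 CPM and the HS livers 17.0, 14.2 and 18.4 CPM. The groups were far apart, with means of 42.9 ± 5.44 CPM (SD, n = 3) in CO and 16.5 ± 2.15 CPM (SD, n = 3) in HS. The log2 fold change was -1.37 (standard error 0.18, edgeR adjusted p = 0.0678). DESeq2 gave -1.39 with an adjusted p of 1.36e-07. Over 21 alternatives the value stayed between -1.48 and -1.27, with adjusted p-values from 1.16e-14 to 0.690. Without CO replicate 1 it was -1.48 (edgeR adjusted p = 0.00355), and without both muscle-bearing libraries -1.38 (edgeR adjusted p = 7.91e-04). The log2 ratio was nearly the same among libraries with the suffix (-1.44) and without it (-1.50). No 100-base window of Hsph1 was shared with another gene.

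Hspa4, the second HSP110 gene (chromosome 11, 53259814 to 53300457, minus strand), differed little. Its CO livers had 141.3, 133.0 and 143.9 CPM and its HS livers 119.8, 119.7 and 126.4 CPM. The groups did not overlap, but the difference was close to its standard error (log2 fold change -0.19, standard error 0.16, edgeR adjusted p = 0.947). It was -0.18 without the muscle-bearing libraries, and the log2 ratio was -0.11 among suffixed libraries and -0.25 among the rest. Hsph1 made up 16.7%, 21.6% and 18.5% of the HSP110 pair per merged exon length in CO livers and 9.73%, 8.29% and 10.0% in HS livers. As with the HSP90 pair, the inducible partner took a smaller share in every HS liver than in any CO liver. With the longest transcript as the length the shares of Hsph1 were 20.4% to 26.0% in CO and 10.3% to 12.4% in HS livers.

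Hspa8 encodes HSC70, the constitutive HSP70 (chromosome 9, 40800984 to 40810087, plus strand), and was among the most abundant RNAs of the set. The CO livers had 792.5, 727.6 and 881.7 CPM and the HS livers 757.9, 474.9 and 746.1 CPM. Only HS replicate 2, a library with muscle transcripts, lay below all CO livers. The log2 fold change was -0.28 (standard error 0.23, edgeR adjusted p = 0.946) and -0.09 without that library, or -0.11 without both libraries that held muscle transcripts. The log2 ratio was 0.05 among suffixed libraries, with HS higher, and -0.82 among the rest, with HS lower, so its sign differed between them. The 3 snoRNA genes Snord14c, Snord14d and Snord14e lie inside Hspa8, and 32.1% of its 100-base windows occurred in other genes, chiefly Gm15459.

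The inducible pair Hspa1a (chromosome 17, 34969190 to 34972156) and Hspa1b (34956436 to 34959238), both on the minus strand, encodes HSP72, the classical heat-induced HSP70. In liver both were low. Hspa1a, near the limit of detection, had 1, 1 and 3 counts in the CO livers and 5, 4 and 1 in the HS livers, and it was too low for the filter of the test. The ratio of its summed counts, HS over CO, was 1.86, with a 95% interval of 0.580 to 6.95 that covers counting error only. Hspa1b, with 15 to 50 counts per liver library, had 3.23, 1.22 and 1.77 CPM in CO and 1.56, 1.12 and 2.60 CPM in HS. These ranges overlapped (log2 fold change -0.26, standard error 0.45, edgeR adjusted p = 0.970), and the sign turned without CO replicate 1 (0.22) and without both muscle-bearing libraries (0.46). Its log2 ratio was 0.77 among suffixed libraries and -1.16 among the rest. No difference was detectable at this depth in either inducible HSP70 RNA of the liver. Shared sequence limits the pair as well, since 47.1% of the 100-base windows of Hspa1a and 49.9% of those of Hspa1b occurred in the partner. Summing the pair gave a log2 fold change of -0.17 in liver (edgeR adjusted p = 0.981).

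Of the HSP40 genes, Dnaja1 encodes a J-domain protein that works with HSC70 on newly made and imported proteins (chromosome 4, 40722150 to 40737149, plus strand). Its CO livers had 241.3, 288.6 and 264.8 CPM and its HS livers 197.3, 158.8 and 195.9 CPM. The groups did not overlap, and the log2 fold change was -0.53 (standard error 0.18, edgeR adjusted p = 0.773). Of the 21 alternatives, DESeq2 on all 12 libraries called it (-0.53, adjusted p = 0.0261, against 0.637% of all genes called lower by that fit), and the others ranged from -0.61 to -0.42 without a call. Without both muscle-bearing libraries it was -0.51 (edgeR adjusted p = 0.337). Among suffixed libraries the log2 ratio was -0.55 and among the rest -0.67. Of its 100-base windows, 24.0% occurred in other genes, and Smu1 overlaps it on the opposite strand.

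Dnajb1 encodes HSP40, the partner of inducible HSP70 (chromosome 8, 83608193 to 83612653, plus strand). The CO livers had 20.7, 22.5 and 22.0 CPM and the HS livers 20.3, 15.8 and 23.7 CPM. The highest and the lowest value both came from HS mice, so no separation was seen (log2 fold change -0.12, standard error 0.19, edgeR adjusted p = 0.965). Without the muscle-bearing libraries it was -0.03, and the log2 ratio was -0.03 among suffixed libraries and -0.43 among the rest. Hsf1, the regulator itself (chromosome 15, 76477422 to 76501913, plus strand), had 13.9, 10.8 and 11.9 CPM in CO livers and 8.19, 12.6 and 11.6 CPM in HS livers. Its ranges overlapped as well (log2 fold change -0.18, standard error 0.22, edgeR adjusted p = 0.960). It was -0.21 without the muscle-bearing libraries, and the log2 ratio was -0.12 and -0.03 with and without the suffix. The RNA level of Hsf1 does not measure its activity, which is set largely by the state of the protein.

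**Figure D3:**
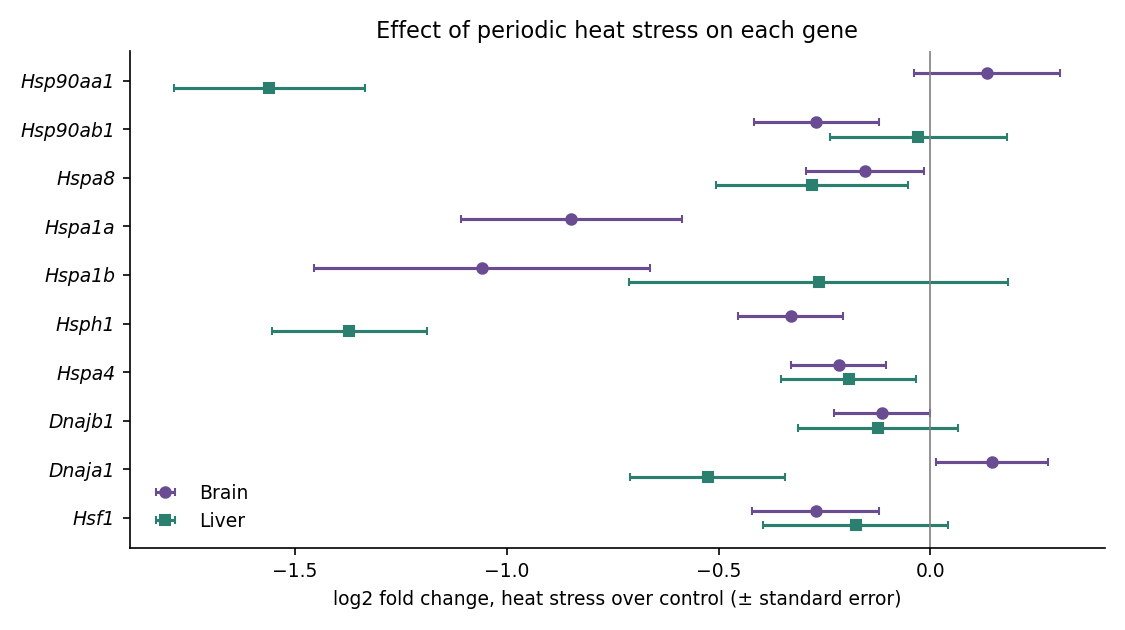
Log2 fold change of HS over CO for each gene, with standard errors from edgeR's quasi-likelihood fit, in brain (circles) and liver (squares). The liver values of Hsp90aa1 (-1.56), Hsph1 (-1.37) and Dnaja1 (-0.53) lie below their brain values (0.13, -0.33 and 0.15), and Hspa1a was tested in brain alone.

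In brain the lowest fold changes of the set belonged to its least abundant genes. Hspa1a and Hspa1b, at a few CPM, stood at 0.555 and 0.480 of their CO level in HS mice, and Hsph1 at 0.796. All 10 genes were tested among 14806. At an adjusted p under 0.05, 0 genes of the set were lower and 0 higher in edgeR's quasi-likelihood test, as among all tested genes (0% called), and DESeq2 on the same libraries also called 0 of the 10, against 2.22% lower and 2.43% higher of all genes it tested. At an unadjusted p under 0.05, 3 were lower (Hspa1a, Hspa1b and Hsph1) and 0 higher, against 10% of all tested genes in either direction. The groups did not overlap for 5 genes, all lower in HS (Hsp90ab1, Hsph1, Hspa8, Hspa4 and Hspa1a), against 12% lower and 12.9% higher of all tested genes. The log2 fold change was below 0 for 8 genes, against 50.3% of all tested genes, and above 0 for Hsp90aa1 and Dnaja1, against 49.7%. The median was -0.24 over the set and -0.003 over all tested genes. Under 18 alternatives 0 genes of the set were called in brain and no sign changed.

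Marker lists of other cells moved with the groups in brain. All 5 endothelial markers were counted in every brain library and summed to 102.9 to 201.2 CPM in CO and 67.7 to 85.5 CPM in HS. All 6 choroid plexus markers summed to 1243 to 2472 CPM in CO and 257.5 to 1123 CPM in HS. All 8 striatal markers summed to 424.7 to 780.2 CPM in CO and 783.6 to 1666 CPM in HS. The hepatocyte list was also apart, with 1165 to 2328 CPM in CO and 229.6 to 1073 CPM in HS. It shares Ttr with the choroid plexus list, and its other 6 markers summed to 2.10 to 6.58 CPM in CO and 2.46 to 15.7 CPM in HS, which overlapped. None of these 4 full lists overlapped between the groups, whereas neuron, astrocyte, oligodendrocyte and microglia lists did. Their part in the brain values was not tested.

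Among the brain HSP70 genes, Hspa1a had 8.23, 5.50 and 4.61 CPM in the CO mice and 3.42, 3.58 and 3.21 CPM in the HS mice. All HS brains lay below all CO brains (log2 fold change -0.85, standard error 0.26, edgeR adjusted p = 0.171). Hspa1b had 9.53, 6.28 and 3.48 CPM in CO and 1.85, 3.76 and 3.68 CPM in HS. The lowest CO brain lay within the HS range (log2 fold change -1.06, standard error 0.40, edgeR adjusted p = 0.202). Summed over the pair, the CO brains had 17.8, 11.8 and 8.09 CPM and the HS brains 5.26, 7.34 and 6.89 CPM. The sum separated the groups (log2 fold change -0.95, edgeR adjusted p = 0.170). Without CO replicate 1, the highest library, Hspa1a gave -0.57 and Hspa1b -0.65. The constitutive Hspa8 had 1602, 1612 and 1575 CPM in CO brains and 1553, 1433 and 1318 CPM in HS brains. Its groups did not overlap either, but the log2 fold change was only -0.15 (standard error 0.14, edgeR adjusted p = 0.553).

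Both HSP110 genes were lower in every HS brain than in every CO brain. Hsph1 had 300.6, 265.7 and 268.7 CPM in CO and 239.5, 197.6 and 227.5 CPM in HS (log2 fold change -0.33, standard error 0.12, edgeR adjusted p = 0.204). Hspa4 had 251.0, 241.6 and 236.1 CPM in CO and 218.3, 192.9 and 215.8 CPM in HS (log2 fold change -0.22, standard error 0.11, edgeR adjusted p = 0.302). The share of Hsph1 in this pair was 45.6% to 47.7% in CO brains and 43.8% to 45.5% in HS brains, per merged exon length, and was lower in each HS brain than in each CO brain by a narrow margin. Per longest transcript it was 51.6% to 53.7% in CO and 49.8% to 51.5% in HS brains, so which gene of the pair was the more abundant depends on the length used. Across the 6 brain libraries their log2 CPM correlated at r = 0.99 (Pearson, a description over libraries that share the group difference).

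The HSP90 genes of the brain had log2 fold changes of opposite sign. Hsp90aa1 had 828.1, 1114 and 987.3 CPM in CO brains and 1230, 1084 and 900.5 CPM in HS brains, which overlapped (log2 fold change 0.13, standard error 0.17, edgeR adjusted p = 0.682). Hsp90ab1 had 1554, 1254 and 1272 CPM in CO and 1169, 1054 and 1164 CPM in HS. These groups did not overlap (log2 fold change -0.27, standard error 0.15, edgeR adjusted p = 0.332). The share of Hsp90aa1 in the pair per merged exon length was 28.9%, 40.4% and 37.2% in CO brains and 44.5%, 44.0% and 37.1% in HS brains. HS replicate 3 fell within the CO range, so the shares overlapped.

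Dnaja1 followed Hsp90aa1 across the brain libraries, with r = 0.97 over 6 libraries. It had 231.4, 288.3 and 257.5 CPM in CO brains and 310.4, 292.0 and 257.2 CPM in HS brains. The lowest HS brain lay inside the CO range (log2 fold change 0.15, standard error 0.13, edgeR adjusted p = 0.557). Dnajb1 had 62.0, 62.5 and 51.8 CPM in CO and 57.2, 52.4 and 53.4 CPM in HS, with all HS brains inside the CO range (log2 fold change -0.11, standard error 0.11, edgeR adjusted p = 0.593). Hsf1 had 38.0, 28.9 and 40.2 CPM in CO and 26.7, 29.2 and 33.0 CPM in HS. CO replicate 2 lay within the HS range (log2 fold change -0.27, standard error 0.15, edgeR adjusted p = 0.333).

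Whether heat acted differently in the 2 tissues was tested as the difference of the log2 fold changes, liver minus brain. The fit held all 12 libraries and 15824 genes and treated the libraries as separate samples. The study had 3 mice in each group, so brain and liver libraries may share mice, which the fit did not model. Hsp90aa1 had a difference of -1.69 (standard error 0.31, edgeR adjusted p = 0.272), from 0.13 in brain and -1.56 in liver. Hsph1 had -1.05 (standard error 0.20, edgeR adjusted p = 0.365), and Dnaja1 had -0.68 (standard error 0.22, edgeR adjusted p = 0.516). Hspa1a, with the few liver counts given above, entered this fit only through brain and is left out of the counts here. At an unadjusted p under 0.05, of the other 9 genes these 3 were lower and 0 higher, against 5.91% lower and 3.73% higher of all tested genes. At an adjusted p under 0.05, 0 genes of the set were called, against 0.00632% of all tested genes in the lower direction (1 gene). DESeq2 on all 12 libraries called Hsp90aa1 (-1.68, adjusted p = 4.65e-05) and Hsph1 (-1.03, adjusted p = 0.00263), against 0.115% of the genes it tested. Without the 2 muscle-bearing libraries edgeR called Hsp90aa1 (-1.97, adjusted p = 0.0270), against 0.0249% lower of all genes tested there, and gave -1.01 for Hsph1 (adjusted p = 0.122) and -0.61 for Dnaja1 (adjusted p = 0.245). On all 12 libraries the remaining 6 genes had differences between -0.14 and 0.74, and none was past an unadjusted p of 0.05.

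**Figure D4:**
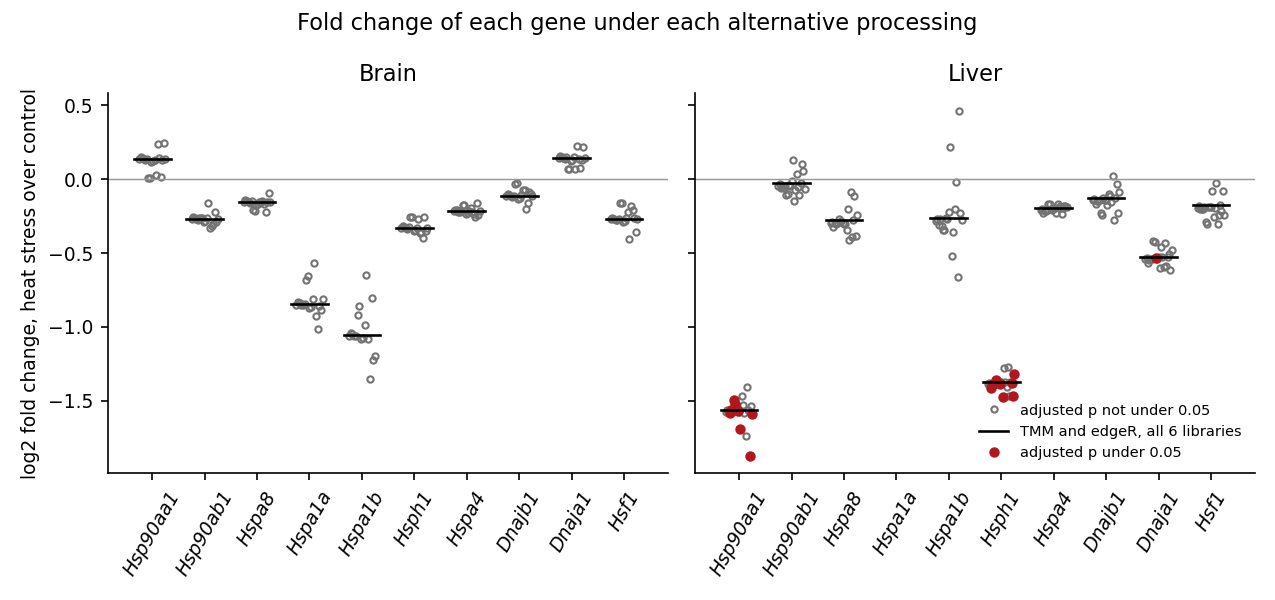
Log2 fold change of HS over CO for each gene under every alternative processing, in brain (left) and liver (right), where each circle is 1 alternative, filled circles have an adjusted p under 0.05 and the black bar is the value from edgeR with TMM on the 6 libraries. In liver the filled circles belong to Hsp90aa1, Hsph1 and, once, Dnaja1, and in brain there are none. Hspa1a has no liver value.

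Levels in control tissue were ordered per length, as CPM per kilobase of the merged exons of a gene. In CO brain Hsp90ab1 led with 453.6 ± 56.0 (SD, n = 3), followed by Hspa8 with 371.2 ± 4.49 and Hsp90aa1 with 248.4 ± 36.4. Hspa4 (43.9), Hsph1 (38.3), Dnaja1 (30.0), Dnajb1 (18.3) and Hsf1 (5.03) came next in that order, each below all libraries of the gene before it. Hspa1b (2.29 ± 1.08) and Hspa1a (2.06 ± 0.635) overlapped at the bottom. In CO liver the order began with Hsp90ab1 (192.2 ± 39.3) and Hspa8 (186.1 ± 18.0), which overlapped, and Hsp90aa1 had 49.8 ± 7.79 CPM per kilobase. Dnaja1 (30.7) stood above Hspa4 (25.2) there, while Dnajb1 (6.78) and Hsph1 (5.90) overlapped. In HS liver Hsp90aa1 was down to 16.9 ± 4.03 CPM per kilobase. Its mean lay below those of Hspa4 (22.1) and Dnaja1 (21.3), and its range (12.8 to 20.8) overlapped that of Dnaja1 (18.4 to 22.9). Part of this order turned when the longest transcript was taken as the length. In CO brain Hsph1 (55.8 to 63.1 CPM per kilobase of that transcript) then stood above Hspa4 (51.1 to 54.4), which overlapped Dnaja1 (41.2 to 51.3), and Hspa8 (498.7 to 510.6) overlapped Hsp90ab1 (497.8 to 616.7). In CO liver Hsph1 (7.83 to 10.1) stood above Dnajb1 (6.89 to 7.51). In HS liver Hsp90aa1 (15.3 to 25.0) lay below both Hspa4 (25.9 to 27.4) and Dnaja1 (28.2 to 35.1) without overlap.

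Control brain was compared with control liver in the fit of all 12 libraries, with TMM factors common to both tissues. Hsph1 and Hsp90aa1 were higher in brain, and Dnaja1 was higher in liver. On that common scale Hsph1 had 190.5 ± 13.4 CPM (SD, n = 3) in brain and 62.9 ± 4.28 CPM (SD, n = 3) in liver (log2 difference 1.60, standard error 0.14, edgeR adjusted p = 1.75e-07). Hsp90aa1 had 667.8 ± 95.3 against 286.7 ± 26.5 CPM (log2 difference 1.22, standard error 0.22, edgeR adjusted p = 1.44e-04). Hspa1a had 240 counts over the 3 brains and 5 over the 3 livers. The ratio per total count was 47.6, with a 95% interval of 20.1 to 148 that covers counting error only. On the common scale, where the contrast was smaller, it had 4.18 ± 1.28 CPM (SD, n = 3) in brain and 0.205 ± 0.167 CPM (SD, n = 3) in liver. It passed the filter of this fit only through brain, where it is high, so no test is given for it. For Dnaja1 the values were 177.2 ± 18.7 CPM in brain and 389.4 ± 14.4 CPM in liver (log2 difference -1.14, standard error 0.16, edgeR adjusted p = 1.40e-05). These 2 higher and 1 lower of the other 9 genes stand against 44.2% higher and 36.1% lower of all tested genes. The other 6 genes were not called, with log2 differences between -0.31 and 0.48. Without CO liver replicate 1, the control library with muscle transcripts, the same 3 genes were called at 1.56, 1.15 and -1.14 (Hsph1, Hsp90aa1 and Dnaja1), and Hsf1 was called too (0.61, edgeR adjusted p = 0.0192), against 45.4% higher and 34.8% lower of all genes tested there. The scale matters here, because the TMM factors were 1.41 to 1.51 in brain and 0.622 to 0.722 in liver. With library totals alone the median of all genes moved from 0.24 to 1.33. Leaving out Hspa1a as above, all genes of the set but Dnaja1 were then called higher in brain. Of all tested genes 65% were called higher and 19.8% lower. Dnaja1 gave -0.05 (edgeR adjusted p = 0.755), and Hspa8 and Hspa4 turned from -0.11 and -0.31 to 0.98 and 0.78. Relative to the median of all genes, Hsph1 and Hsp90aa1 stood higher in brain, and Dnaja1 lower, under both scales.

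The wider chaperone network was read from lists of genes named by family or role. In liver, 8 of 24 tested heat-inducible genes known as HSF1 targets were lower at an unadjusted p under 0.05 and 0 were higher, with a median log2 fold change of -0.27, against 2.87% lower and a median of 0.01 over all tested genes. Of its 25 listed genes 9 belong to the set, and Hsp90aa1, Hsph1 and Dnaja1 are among the 8. Stip1, the adaptor that joins HSP70 to HSP90, was another of the 8, with 71.6, 63.2 and 58.3 CPM in CO livers and 42.0, 45.2 and 40.4 CPM in HS livers (log2 fold change -0.60, standard error 0.16, edgeR adjusted p = 0.465). Among 29 co-chaperones 6 were lower and 1 higher at that p, against 2.87% lower and 2.97% higher of all tested genes. The higher one was Fkbp5, a glucocorticoid-induced immunophilin that binds HSP90, with 11.9, 12.6 and 12.2 CPM in CO and 17.3, 16.9 and 19.9 CPM in HS (log2 fold change 0.56, standard error 0.17, edgeR adjusted p = 0.604). Cacybp, which binds calcyclin, had a log2 fold change of -0.79 (standard error 0.24, edgeR adjusted p = 0.604).

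Chaperones of the endoplasmic reticulum (ER) had 11 of 16 genes lower in the HS liver at an unadjusted p under 0.05, against 2.87% of all tested genes, and 0 at an adjusted p under 0.05. The groups did not overlap for 12 of the 16, against 5.73% lower of all tested genes, and all 16 log2 fold changes were below 0, against 48.2%. Their median was -0.68. Creld2, a secretory stress protein, had 64.9 ± 21.9 CPM (SD, n = 3) in CO and 14.0 ± 2.97 CPM (SD, n = 3) in HS, and its edgeR adjusted p of 0.0599 was the lowest of the liver comparison. Hspa5, the HSP70 of the ER (BiP), had 1042 ± 151 CPM in CO and 454.9 ± 54.9 CPM in HS (log2 fold change -1.20, standard error 0.20, edgeR adjusted p = 0.132). Sdf2l1, a cofactor of BiP, had a log2 fold change of -1.67 (standard error 0.26, edgeR adjusted p = 0.132). Hsp90b1, the HSP90 of the ER, had 1440 ± 281 CPM in CO and 736.9 ± 33.7 CPM in HS (log2 fold change -0.97, standard error 0.21, edgeR adjusted p = 0.366), whereas mitochondrial Trap1 had 0.08 (standard error 0.23, edgeR adjusted p = 0.984). Among the other HSP70 genes, 4 of 9 were lower at an unadjusted p under 0.05, against 2.87% of all tested genes, with Hspa5, Hyou1 (-1.27) and Hspa13 (-0.83) lowest in p, and the first 2 of these are also on the ER list. Only 2 of 36 other HSP40 genes were lower at that p, Dnajb11 (-0.64) and Dnajc3 (-0.54), and both encode ER proteins and stand on the ER list, while Dnajb12 had 0.46 without passing on these 6 libraries. Of 5 tested small heat shock proteins 0 passed in either direction, with Hspb1 at -0.47. Cryab (1.11) had 26.8 CPM and Hspb6 (0.49) 34.4 CPM in HS liver replicate 2, against at most 4.26 and 14.4 CPM in the other HS livers. HS replicate 2, the library with the most muscle transcripts, was the high one both times, and without the 2 muscle-bearing libraries Cryab gave 0.24 and Hspb6 0.09, neither past an unadjusted p of 0.05, while Hspb1 gave -0.81, past an unadjusted p of 0.05 (edgeR adjusted p = 0.245). Hsf4 (0.31) and Sirt1 (-0.27) did not pass, and of 10 heat shock factors and regulators Hsf2 alone was lower (-0.43, edgeR adjusted p = 0.846). At an adjusted p under 0.05 edgeR called 0 genes of every list on the 6 liver libraries.

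The fit without the 2 libraries that held muscle transcripts set 2 CO against 2 HS livers. The ER list again had 11 of 16 genes lower at an unadjusted p under 0.05, now against 4.57% of all tested genes. Its median was -0.68, and 15 of 16 log2 fold changes were below 0, against 49.6% of all tested genes. At an adjusted p under 0.05, 6 of the 16 fell, against 0.286% of all tested genes. Among them Creld2 had a log2 fold change of -2.15 (edgeR adjusted p = 6.00e-04), Hspa5 of -1.17 (0.0134) and Hsp90b1 of -1.15 (0.0134). Of the 24 heat-inducible genes 9 were lower at an unadjusted p under 0.05 and 4 at an adjusted p (Hsp90aa1, Hsph1, Hspa4l and Cacybp). Of the other HSP70 genes 4 of 9 fell at an adjusted p under 0.05 (Hspa5, Hyou1, Hspa4l and Hspa13), and of the 29 co-chaperones Cacybp alone (-0.94, edgeR adjusted p = 0.0246). At an unadjusted p under 0.05, 3 of the 36 other HSP40 genes were lower and 1 higher, Dnajb12 (0.65, edgeR adjusted p = 0.203), against 4.57% lower and 5.84% higher of all tested genes, and of the 5 small heat shock proteins Hspb1 alone was lower. Of the 36 other HSP40 genes, 5 small heat shock proteins and 10 factors and regulators 0 were called, with Stip1 at -0.57 (edgeR adjusted p = 0.228) and Fkbp5 at 0.57 (0.357).

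In brain the same ER list had 7 of 16 genes lower and 1 higher at an unadjusted p under 0.05, with a median of -0.23, against 10% of all tested genes in each direction and a median of -0.003. Pdia4, a protein disulfide isomerase, had 44.5 ± 2.23 CPM (SD, n = 3) in CO and 31.3 ± 1.20 CPM (SD, n = 3) in HS (log2 fold change -0.51, standard error 0.10, edgeR adjusted p = 0.170). Hspa5 had 281.5 ± 26.2 against 192.5 ± 10.7 CPM (log2 fold change -0.55, standard error 0.12, edgeR adjusted p = 0.170). Of 25 heat-inducible genes 7 were lower and 3 higher, with a median of -0.18. Hspa1a, Hspa1b and Hsph1 are among the 7, as is Fkbp4, an immunophilin of steroid receptor complexes (-0.34). The other HSP40 genes went both ways, with 8 of 37 higher and 5 lower at that p. Dnajc19, of the mitochondrial import motor, had 23.9 ± 3.73 CPM in CO and 36.2 ± 5.08 CPM in HS (log2 fold change 0.60, standard error 0.15, edgeR adjusted p = 0.170), while Dnajc2 had a log2 fold change of 0.42 (edgeR adjusted p = 0.170) and Dnajb5 of -0.53 (edgeR adjusted p = 0.172). The other HSP70 genes had 3 of 9 lower at that p, Hyou1 (-0.61), Hspa5 (-0.55) and Hspa12a (-0.41), and 0 higher. Hsp90b1 and Trap1 both had -0.09 without passing. Of 29 co-chaperones 4 were higher and 3 lower, with Tomm70a at 0.46 and Bag6 at -0.43. Among heat shock factors and regulators, the coactivator genes Ep300 (-0.46) and Crebbp (-0.48) were lower at that p, and Hsbp1, a binding protein of HSF1, was higher (0.35). Of 7 tested genes listed as small heat shock proteins, Hspb11 (0.69), which is on the list by its symbol, was higher at that p. Cryab (-0.38), which encodes alpha-B crystallin, was lower at that p, and Hspb1 had -0.43 without passing. As in liver, edgeR called 0 genes of every brain list at an adjusted p under 0.05.

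The genes whose pattern over libraries was most like that of the set were found by correlation with the mean z-score of its tested members other than Hsf1. In brain they were Sdk1 (r = 0.99), Lsm11 (0.99), Egfr (0.99), Rnf219 (0.99) and Pnmal2 (0.98), over 6 libraries and 9 members. In liver they were Miga1 (r = 0.99), Plet1 (0.98), Ttpal (0.97), Marveld3 (0.95) and Slc13a2 (0.95), over 6 libraries and 8 members. Within the liver set, Hsph1 ran closest to Dnaja1 (r = 0.97) and Hsp90aa1 (r = 0.92), while Hsp90aa1 and Hsp90ab1 had r = -0.14. These are descriptions over 6 libraries that share a group difference and, in liver, the 2 libraries with muscle transcripts.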

How the data were processed

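Polyadenylated RNA of 12 libraries was measured by paired-end stranded sequencing. The authors deposited raw read counts per gene symbol. Per their processing notes and methods, reads were trimmed with Trimmomatic 0.39, aligned to mm10 with HISAT2 2.2.1 and counted with featureCounts (Subread 2.0.1), and a second description names Tophat2 and HTSeq. The annotation release and the handling of strand and of reads shared between genes are not given in the sources used here. The authors' tables of fold changes and p-values were not used.

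HS and CO libraries of a tissue were compared in R 4.3.3 with edgeR 4.0.16 (quasi-likelihood test, robust, TMM, minimum count 10 and minimum total 15, Benjamini-Hochberg adjustment over all tested genes, called at an adjusted p under 0.05). The difference between tissues and control brain against control liver came from 1 fit of 12 libraries. That fit treated the libraries as separate samples and did not model brain and liver libraries from the same mouse. The standard error of a log2 fold change is its size divided by the root of the F statistic. With 3 against 3, an exact permutation test cannot go under p = 0.1. Exon lengths and coordinates are from GENCODE M21 (mm10). Named list genes are the 3 with the smallest p in a list, since none was called, and the 5 most correlated genes. One gene that this rule names is not reported here. Alternatives were other scalings, DESeq2 1.42.0, other filters, a length and GC offset, a replicate block and each library left out. Scripts were tested on simulated data. The members and lists were chosen with earlier results of these data known.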

Additional observations from a re-analysis of the deposited data

How the results depend on the processing

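In brain, 0 genes of the set were called under each of 18 alternatives. In liver, where 0 were called lower, the count was, with the share of all genes called lower in brackets, 1 with library totals alone (0.0163%), 2 with DESeq2 on the 6 libraries (0.307%), 2 with edgeR on all 12 (0.0506%), 2 with a length and GC offset (0.0895%), 3 with DESeq2 on all 12 (0.637%), 2 without a filter (0.0279%) and 0 to 2 when each library was left out. The 2 came without liver control replicate 1 (Hsp90aa1 and Hsph1, 0.128%). Chosen after seeing the data, removing both libraries with muscle transcripts gave 2 (0.286%), the column suffix as a covariate 1 (0.0407%) and the muscle score as a covariate 2 (0.285%). A replicate block gave 0 and, with the length and GC offset, 1 (0.0488%). Within a tissue, deviations of same-numbered CO and HS libraries correlated at -0.29, 0.19 and -0.20 in brain and at -0.58, -0.51 and -0.09 in liver. With 3 libraries per group the deviations depend on each other, so these values cannot decide whether replicate numbers pair CO with HS libraries. Pairing between brain and liver libraries was not tested. The block gave 0 called in brain too and 0 for the tissue difference. Hsp90aa1 and Hsph1 in liver, and Hspa1a and Hspa1b in brain, kept their sign under every alternative that gave a value.

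For the difference of the heat effect, DESeq2 on all 12 libraries called 2 lower, and removing both libraries with muscle transcripts, chosen after seeing the data, 1. For control brain against control liver the counts are over all 10 genes, with Hspa1a, which passed the filter through brain alone. Its call there is no test, so these counts are not read against the shares of all genes. With edgeR and TMM, 3 were higher and 1 lower. The higher count was 5 with RLE size factors (45.8% of all genes), 5 with DESeq2 (40.8%), 5 with upper quartiles (45.5%) and 9 with library totals (65%). With library totals the lower count was 0 (19.8%). Upper quartiles and library totals were added there after seeing the data. DESeq2 called 2 lower (31.2%), and leaving out a library 1 to 2.

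Signs that turned belonged to genes not called in the comparison as reported, of which Hspa8 and Hspa4 were called with the turned sign under library totals. With each library left out in turn, liver Hsp90ab1 ranged from -0.146 to 0.133 (0.035 without heat stress replicate 1), Hspa1b from -0.659 to 0.217 and Dnajb1 from -0.279 to 0.0186. Without the muscle libraries Hsp90ab1 gave 0.104 and Hspa1b 0.463, and with the suffix Hsp90ab1 gave 0.0579. In the difference, leaving out a library gave -0.158 to 0.11 for Dnajb1, -0.0567 to 0.0904 for Hspa4, -0.0771 to 0.257 for Hsf1 and -0.249 to 0.0293 for Hspa8. Dnajb1 gave 0.00777 with RLE, 0.00588 with DESeq2 and 0.0294 without a filter, and Hspa4 gave -0.0156 with library totals. Without the muscle libraries the difference was 0.0834 for Hspa8 and 0.124 for Dnajb1. In the tissue comparison Hsp90ab1 ranged from -0.0273 to 0.364, and library totals turned Hspa8 to 0.976 and Hspa4 to 0.782. The cause was not tested. Depth limits Hspa1a in liver, at 1 to 5 counts per library.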
